A study of Rattus norvegicus with 115 samples.

Results

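Gene expression in 9L brain tumours of rats was compared 6 h after either microbeam radiation therapy (MRT) or a conventional broad beam (BB). The comparison used every tumour array labelled as treated with MRT and taken at 6 h, 9 arrays from rats 6 to 14, and every tumour array labelled as treated with BB and taken at 6 h, 6 arrays from rats 44 to 49. These 15 arrays were part of 115 in the series. All rats were of the Fisher strain and carried tumours grown from 9L cells, a rat glioma line that the labels call glioblastoma, injected into the right caudate nucleus. Treatment followed 10 days after implantation. MRT delivered 400 Gy along each microbeam and left 18 Gy in the valleys between them. BB delivered 17,4 Gy (decimal comma, as the labels have it) to the whole field. Tumours of 5 untreated rats taken at 6 h gave the untreated level, and the opposite (contralateral) hemisphere of the same 20 rats gave 9 MRT, 6 BB and 5 untreated arrays without tumour. The labels give no age or sex, and 1 protocol text speaks of 6 MRT rats where 9 rat numbers are listed.

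In MRT a sheet of synchrotron X-rays is cut into parallel, very narrow beams. Strips of tissue receive an extreme dose while the valleys between them receive a far lower, scattered dose. A broad beam gives the whole field one dose. Here the labelled valley dose of MRT was slightly above the BB dose. Ionizing radiation breaks DNA, which activates the kinase ATM, the p53 pathway, cell cycle arrest and, through NF-kB, the transcription of inflammatory genes. NF-kB is held in the cytoplasm by the inhibitor Nfkbia and, once free, induces cytokines, adhesion molecules and its own inhibitors, among them Nfkbia and the ubiquitin-editing enzyme Tnfaip3. Chemokines such as Cxcl1 and Cxcl2 draw neutrophils to vessels whose endothelium displays Sele and Icam1.

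All BB arrays form a label set of their own, and the submitters' processing notes name RMA alone for them where they name MAS5 and RMA for the others. The kind of radiation and the label set therefore cannot be told apart within tumours. In bulk tissue, fewer cells of a type and less RNA per cell cannot be told apart either. Within each tissue each array is from 1 rat, so the spread is that between rats. The tumour label was checked with Cdkn2a, a cell cycle inhibitor gene that these tumours express strongly. Its log2 intensity was 8.63 to 11.82 on the MRT arrays and 8.64 to 11.78 on the BB arrays, against at most 4.81 on any contralateral array of the same treatments. The lowest values belonged to MRT rat 6 (8.63) and BB rat 47 (8.64), and Mmp3, a matrix protease of these tumours, was also lowest in MRT rat 6 (9.82) and BB rat 47 (11.48) within their groups. Brain was present in all tumour samples, as neuron markers averaged 10.28 ± 0.51 (SD, n = 9) after MRT, 9.53 ± 0.52 (SD, n = 6) after BB and 10.33 ± 0.44 (SD, n = 5) untreated.

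The BB tumours of rats 46, 47 and 48 stood apart in some array measures. Their upper quartiles of intensity were 431, 449 and 418, where the other tumour arrays at 6 h lay between 473 and 519. The 3 prime probe set of Gapdh exceeded the 5 prime one by 0.80, 0.66 and 0.68 log2 in them, a gap that grows as RNA is degraded or shortened, against -0.16 to 0.56 after MRT and 0.46, 0.00 and 0.06 in BB rats 44, 45 and 49. The same gap of the actin probe sets did not set them apart. It was 2.19, 2.31 and 1.68 in rats 46, 47 and 48 and 0.67 to 2.70 on the other tumour arrays. RNA quality was not tested otherwise. The second principal component of the 20 tumour arrays, with 21.1% of the variance, was -69.1, -53.8 and -88.6 in these 3 and between -12.2 and 34.3 in the other 17. Contralateral Gapdh gaps were 0.65 and 0.50 in BB rats 46 and 48, 0.15 in rat 47 and 0.24, 0.21 and 0.25 in rats 44, 45 and 49. They averaged 0.33 after BB, 0.06 after MRT (-0.18 to 0.23) and 0.02 untreated (-0.18 to 0.43). Leaving out rats 46, 47 and 48 therefore does not level this measure contralaterally. Most results are given both for all 6 BB arrays and without BB rats 46, 47 and 48. With the Gapdh gap as a covariate, the probe sets at an unadjusted p under 0.05 numbered 3883 against 7373 without it, and NF-kB feedback genes higher at that level 6 of 19 against 12. Immediate early genes higher at that level numbered 6 of 29 against 14, and the medians of these lists were 0.52 and 0.27 with the covariate against 0.57 and 0.41. Of all 31042 probe sets, 1897 were higher at that level with the covariate and 2913 without it, so the counts fell beyond these lists too.

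**Figure D1:**
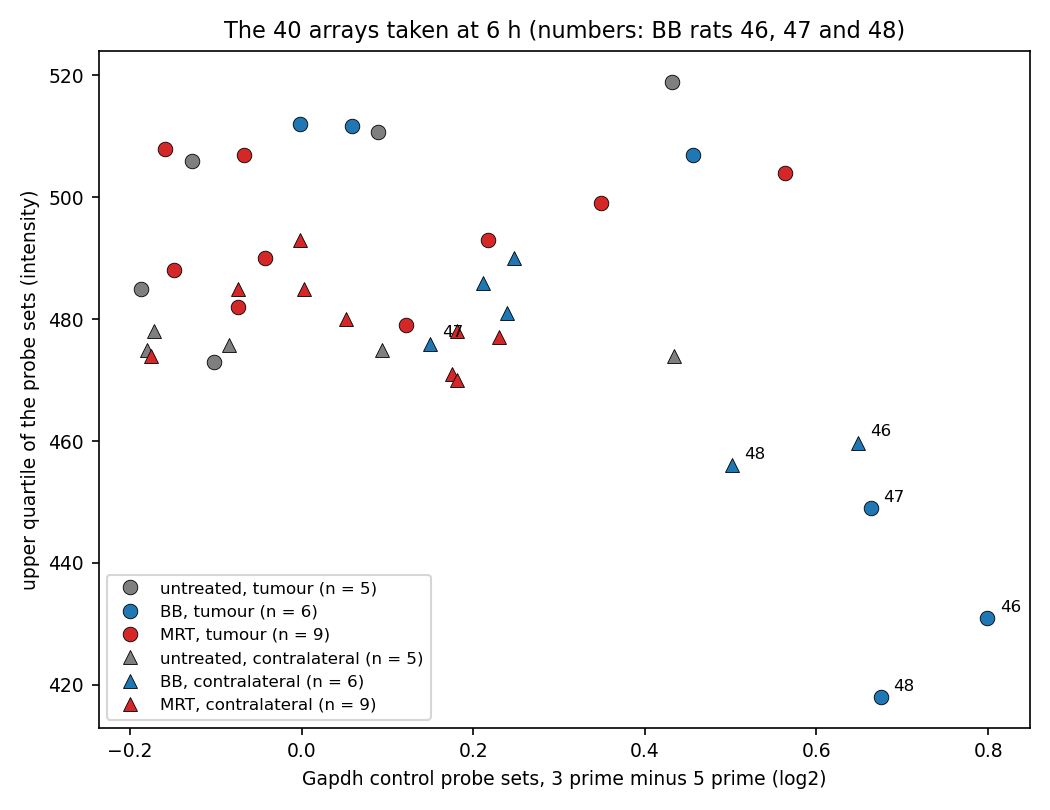
Upper quartile of intensity (vertical axis) against the log2 difference between the 3 prime and 5 prime Gapdh probe sets (horizontal axis) for the 40 arrays at 6 h, circles for tumours and triangles for contralateral tissue, coloured by treatment. The tumours of BB rats 46, 47 and 48 lie at 418 to 449 and 0.66 to 0.80, below and to the right of the others.

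No probe set passed the test between MRT and BB tumours: 0 of 31042 (0%) were called by limma at an adjusted p under 0.05, and the smallest adjusted p was 0.0559. At an unadjusted p under 0.05, 7373 probe sets (23.8%) differed, 2913 higher (9.38%) and 4460 lower (14.4%) after MRT. In 11 probe sets (0.0354%) all 9 MRT arrays lay above all 6 BB arrays, and in 74 (0.238%) all lay below. Without BB rats 46, 47 and 48, 0 probe sets were again called and 4414 (14.2%) had an unadjusted p under 0.05, 1873 higher (6.03%) and 2541 lower (8.19%), with a smallest adjusted p of 0.274. The count of calls was 459 without MRT rat 7, 738 without MRT rat 8, 2051 without BB rat 44, 417 without BB rat 45, 979 without BB rat 47 and 1060 without BB rat 49, and 0 without each of the others. With all 59 tumour arrays of the series sharing the estimate of spread, 3287 probe sets were called (10.6%), 1196 higher (3.85%) and 2091 lower (6.74%). Differences below are log2, MRT minus BB, ± standard error. They are measured values that did not pass the main test, and the adjusted p stands beside those named first. The median difference over all probe sets was -0.04, or 0.00 without the 3 rats. It was 0.06 when arrays were scaled to their ribosomal protein genes and -0.11 when they were scaled to a common median, a shift that applies to the tumour differences. The balance of directions turned with the scaling: at an unadjusted p under 0.05, ribosomal scaling gave 4404 higher and 1539 lower, and a common median 2131 higher and 6412 lower.

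The list called NF-kB feedback genes averaged higher after MRT. Besides inhibitors such as Nfkbia and Tnfaip3 it holds other NF-kB targets, among them Icam1, Vcam1, Sele, Irf1 and Ptgs2. Of 19 measured members, 17 averaged higher, 12 with an unadjusted p under 0.05 against 9.38% of all probe sets, and 0 were lower at that level. The median difference was 0.57 against -0.04 over all probe sets. Without the 3 rats it was 0.53, with 7 members higher at an unadjusted p under 0.05 against 6.03% of all probe sets. The sign of the median was positive under all alternatives run. This list and all others were chosen with earlier results of these data known.

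Tnfaip3, which removes activating ubiquitin chains from NF-kB signalling proteins, was 8.76 at lowest, 9.38 at the median and 10.20 at highest after MRT. After BB it was 8.01, 8.29 and 8.52, and untreated tumours spanned 7.61 to 8.68. All 9 MRT arrays exceeded all 6 BB arrays. The difference was 1.18 ± 0.19, or 2.26-fold (adjusted p = 0.0559), and 1.08 ± 0.25 without the 3 rats. Over all alternatives run, its adjusted p ranged from 0.000571, over 59 tumour arrays, to 0.353, with the neuron mean as a covariate, and it was 0.274 without the 3 rats.

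Nfkbia, the inhibitor that retains NF-kB in the cytoplasm, ran from 9.84 through 11.14 to 11.75 after MRT and from 9.68 through 10.08 to 10.68 after BB. In 7 of 9 MRT tumours it exceeded every BB tumour, and MRT rats 6 and 7 were the exceptions. The difference was 0.80 ± 0.23, and 0.76 ± 0.29 without the 3 rats.

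Icam1, the endothelial and leukocyte adhesion molecule, was 8.64, 10.46 and 11.14 (lowest, median, highest) after MRT against 8.07, 8.92 and 9.53 after BB. MRT rats 6 and 7 overlapped with the BB range and the other 7 did not. The difference was 1.39 ± 0.32 (adjusted p = 0.057), 1.25 ± 0.41 without the 3 rats. Sele, the E-selectin that endothelium makes only when activated, was 5.32, 6.69 and 8.25 after MRT, 3.91, 4.95 and 6.54 after BB and 3.70 to 4.17 untreated. Here 5 of 9 MRT tumours lay above the BB range, and every MRT tumour was above every untreated one. The difference of Sele was 1.47 ± 0.38, 0.94 ± 0.46 without the 3 rats.

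**Figure D2:**
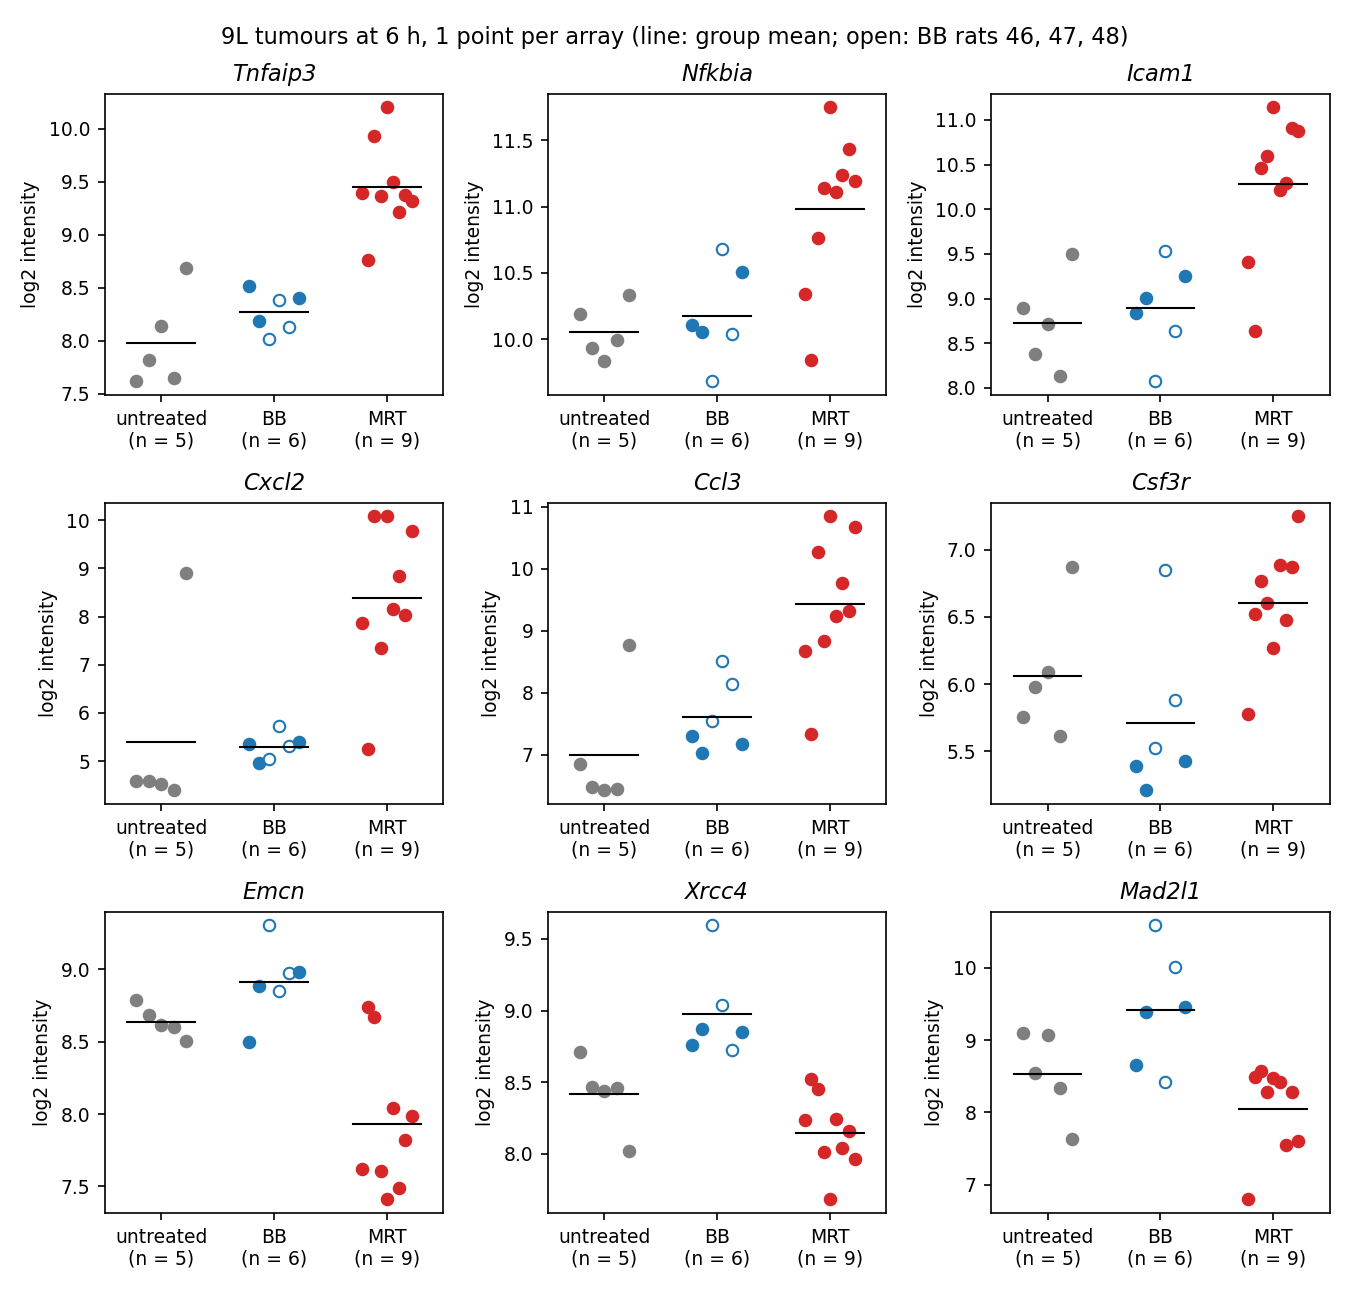
Log2 intensity of 9 genes on each tumour array at 6 h, untreated (n = 5), BB (n = 6, rats 46, 47 and 48 as open circles) and MRT (n = 9), with the group mean as a line. Tnfaip3 shows no overlap between MRT and BB, Cxcl2 reaches 8.15 at the MRT median against at most 5.73 after BB, and Emcn, Xrcc4 and Mad2l1 are lower after MRT.

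Promoters of many NF-kB target genes carry kappaB sites, and the sequences upstream of 4 genes that averaged higher are shown as examples of windows with a match. The windows of Icam1, Sele and Il1b, which also averaged higher, hold 0 matches. The windows are the 250 bases before the transcription start in RefSeq annotation of GRCr8, written 5' to 3' on the gene's strand, with matches to the kappaB consensus on either strand in capitals. Tnfaip3 lies at chr1:15543980-15544229, Nfkbia at chr6:78597073-78597322, Cxcl2 at chr14:17467256-17467505 and Cxcl1 at chr14:17479322-17479571, all on the minus strand.
Tnfaip3: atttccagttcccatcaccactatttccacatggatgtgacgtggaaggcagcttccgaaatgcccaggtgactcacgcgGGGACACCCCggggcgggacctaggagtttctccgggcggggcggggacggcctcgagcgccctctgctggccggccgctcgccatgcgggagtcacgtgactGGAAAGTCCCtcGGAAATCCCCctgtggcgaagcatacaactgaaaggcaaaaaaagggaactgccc
Nfkbia: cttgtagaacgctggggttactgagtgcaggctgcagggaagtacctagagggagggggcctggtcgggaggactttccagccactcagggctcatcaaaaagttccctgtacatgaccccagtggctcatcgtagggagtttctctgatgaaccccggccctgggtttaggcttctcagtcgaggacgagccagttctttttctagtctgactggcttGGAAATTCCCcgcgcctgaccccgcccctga
Cxcl2: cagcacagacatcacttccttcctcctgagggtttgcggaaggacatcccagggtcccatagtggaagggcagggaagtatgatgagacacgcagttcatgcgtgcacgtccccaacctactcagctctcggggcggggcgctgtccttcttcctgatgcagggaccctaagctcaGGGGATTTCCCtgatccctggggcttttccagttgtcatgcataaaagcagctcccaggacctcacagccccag
Cxcl1: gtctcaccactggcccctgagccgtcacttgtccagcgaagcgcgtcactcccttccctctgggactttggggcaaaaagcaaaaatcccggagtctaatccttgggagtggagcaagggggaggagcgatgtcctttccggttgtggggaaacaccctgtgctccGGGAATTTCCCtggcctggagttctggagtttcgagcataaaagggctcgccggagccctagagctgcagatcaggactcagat
Tnfaip3 holds 3 matches that begin 170, 67 and 55 bases before the start. Nfkbia holds 1, which begins 31 bases before it. The matches in Cxcl2 begin 74 and 73 bases and those in Cxcl1 84 and 83 bases before the start, and each pair overlaps, so that it shows as 1 run of capitals. A match was present in 967 of 27457 such windows (3.52%), in 8 of 17 NF-kB feedback genes with a window (47.1%), in 7 of 23 cytokine and chemokine genes (30.4%), in 1 of 7 neutrophil markers (14.3%), in 2 of 19 immediate early genes (10.5%) and in 2 of 27 mitosis genes (7.41%). A match describes the letters of the window and not a bound site. The NF-kB list is made of known NF-kB targets, so its share says nothing about MRT against BB.

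Among 32 cytokine and chemokine genes the median difference was 0.12. At an unadjusted p under 0.05, 6 were higher and 1 was lower, against 9.38% and 14.4% of all probe sets. With the neuron mean as a covariate the median was -0.01, with 3 higher at that level against 2005 of all 31042 probe sets. It was 0.31 without the 3 rats, with 10 higher and 0 lower, against 6.03% and 8.19% of all probe sets. Cxcl2, a neutrophil-attracting chemokine, had the largest of those named: it was 5.25, 8.15 and 10.08 after MRT against 4.95, 5.34 and 5.73 after BB, so 8 of 9 MRT tumours lay above the BB range and rat 7 lay inside it. The difference was 3.08 ± 0.68 (adjusted p = 0.0559), and 3.15 ± 0.95 without the 3 rats. The BB values lay about the lower quartile of all intensities (log2 5.17), so the size of the difference rests on dim values. Untreated tumours spanned 4.39 to 8.91, with rat 5 at the top, and the other 4 untreated tumours were at or below 4.58.

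Ccl3, a chemokine for monocytes and other leukocytes, was 7.34, 9.32 and 10.85 after MRT against 7.02, 7.42 and 8.52 after BB. Again 8 of 9 MRT tumours were above the BB range, with rat 7 the exception, and the difference was 1.82 ± 0.46 (adjusted p = 0.0584), 2.27 ± 0.60 without the 3 rats. Cxcl1, the neighbour and relative of Cxcl2, was 7.41, 9.16 and 11.03 after MRT against 7.12, 7.55 and 8.69 after BB. Its difference was 1.37 ± 0.37, 1.23 ± 0.49 without the 3 rats. Il1b, the fever-inducing cytokine of myeloid cells, differed by 1.19 ± 0.40, 1.58 ± 0.52 without the 3 rats, with 6 of 9 MRT tumours above the BB range. Ccl4, a relative of Ccl3, differed by 0.63 ± 0.42, and by 1.44 ± 0.46 without the 3 rats, and BB rats 47 and 48 held its highest BB values, 9.81 and 9.19. Il6, an acute-phase cytokine, went the other way in value: it was 6.41, 7.14 and 7.95 after MRT against 6.54, 7.41 and 9.17 after BB, a difference of -0.64 ± 0.39. BB rats 46 and 48 held the highest values (9.17 and 9.01), and without the 3 rats the difference was -0.01 ± 0.39. With the neuron mean as a covariate it was 0.22 ± 0.34.

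MRT rat 7 gave the lowest MRT value in 29 of 51 genes of the NF-kB feedback and cytokine lists in the tumour, and in 35 of 51 in its contralateral hemisphere. MRT rat 6 was lowest in 11 of the 51 in the tumour and in 0 contralaterally. Rat 7 was singled out by these same genes, so the fit without it is no support for them.

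Neutrophil markers followed the chemokines in direction. Of 11 measured, 7 averaged higher after MRT, 6 at an unadjusted p under 0.05 against 9.38% of all probe sets, and 0 were lower at that level. Their median was 0.72, or 0.45 without the 3 rats, with 5 then higher at that level against 6.03% of all probe sets. Their mean per array was 5.22 to 6.30 after MRT, 5.10 to 5.89 after BB and 4.75 to 5.76 untreated, so the groups overlapped and all levels were low. Csf3r, the receptor for granulocyte colony-stimulating factor, was 5.78, 6.60 and 7.25 after MRT against 5.21, 5.47 and 6.85 after BB. BB rat 47 alone among BB tumours exceeded the MRT median. The difference was 0.89 ± 0.24, and 1.26 ± 0.26 without the 3 rats.

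S100a8, a calcium-binding protein abundant in neutrophils, was 5.49, 7.65 and 8.37 after MRT against 5.13, 5.84 and 7.11 after BB, and 6 of 9 MRT tumours lay above the BB range. Its difference was 1.40 ± 0.42, 1.76 ± 0.52 without the 3 rats. Lcn2, an iron-trapping protein that neutrophils and reactive astrocytes both make, differed by 0.72 ± 0.21, 1.10 ± 0.23 without the 3 rats. Of the defining markers, Cxcr2, the receptor for Cxcl1 and Cxcl2, stayed near the floor of the array, at 4.46 to 5.36 after MRT and 4.52 to 4.75 after BB.

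Immediate early genes, the transcription factors and feedback regulators that cells switch on within minutes of a stimulus, averaged higher after MRT in 27 of 29. At an unadjusted p under 0.05, 14 were higher and 1 was lower, against 9.38% and 14.4% of all probe sets. The median was 0.41. It was 0.17 without the 3 rats, with 5 higher at that level against 6.03% of all probe sets. Egr1, a zinc finger transcription factor, was 11.21, 12.24 and 12.87 after MRT, 10.74, 11.30 and 11.99 after BB and 11.22 to 11.73 untreated. In 6 of 9 MRT tumours it exceeded every BB tumour. The difference was 0.82 ± 0.22, but 0.40 ± 0.25 without the 3 rats, which held the lowest BB values. Zfp36, which destabilizes cytokine messages, differed by 1.22 ± 0.36, and by 1.08 ± 0.41 without the 3 rats. The MAP kinase phosphatase gene Dusp5 differed by 0.65 ± 0.21, and by 0.21 ± 0.21 without them.

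Gadd45b, a stress-induced regulator of MAP kinase signalling, belonged to no list and was named after its value was seen. It was 9.00, 9.86 and 10.35 after MRT, 8.41, 8.64 and 9.11 after BB and 7.97 to 8.59 untreated. In 8 of 9 MRT tumours it exceeded every BB tumour, and rat 7 was the exception. The difference was 1.04 ± 0.19 (adjusted p = 0.0559), 1.15 ± 0.23 without the 3 rats. Among growth factor and vascular signalling genes the median was 0.00 over 32, -0.08 without the 3 rats. Hbegf, an epidermal growth factor relative, differed by 1.12 ± 0.32 and by 0.59 ± 0.37 without the 3 rats, and Vegfa, the main angiogenic factor, by 0.51 ± 0.18 and 0.19 ± 0.19. A dimmer probe set of Vegfa gave 0.13.

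Of 27 measured p53 target genes, 3 were higher and 1 was lower at an unadjusted p under 0.05, shares near or below the 9.38% and 14.4% of all probe sets, and the median was 0.05, 0.13 without the 3 rats. Every treated tumour had a higher list mean than every untreated one, with 8.65 to 9.12 after MRT, 8.49 to 9.20 after BB and 8.09 to 8.20 untreated. Gdf15, a stress cytokine, was 6.36, 8.14 and 9.59 after MRT against 6.07, 6.97 and 8.25 after BB, with overlapping ranges and a difference of 1.10 ± 0.40, 1.08 ± 0.49 without the 3 rats. Zmat3, an RNA-binding p53 target, differed by 0.38 ± 0.12, and by 0.13 ± 0.12 without the 3 rats. Mgmt, which removes alkyl groups from guanine, was 6.17, 6.54 and 7.42 after MRT against 6.81, 7.55 and 9.48 after BB. Its difference was -1.21 ± 0.34, and -0.26 ± 0.23 without BB rats 46, 47 and 48, which held its 3 highest BB values, 8.05, 9.48 and 8.85.

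Genes of DNA replication, DNA repair and mitosis averaged lower after MRT than after BB. Means of replication genes were 9.53 after MRT, 9.96 after BB and 9.66 untreated, and those of repair genes 8.15, 8.39 and 8.27. BB thus averaged above untreated in both lists. Means of mitosis genes were 8.84, 9.24 and 9.85, and the array ranges of the groups overlapped in all these lists. All 31 replication genes had a negative difference, 9 of them at an unadjusted p under 0.05 against 14.4% of all probe sets, with a median of -0.37. Leaving out the 3 rats, the median was -0.81 and 21 of 31 were lower at that level. All 30 mitosis genes had a negative difference, but 1 of 30 was lower at an unadjusted p under 0.05, a share below the 14.4%. Their median was -0.40, and without the 3 rats -0.92 with 18 of 30 lower at that level. Of 26 repair genes 20 were lower on average and 4 at that level, a share near the 14.4%, with a median of -0.26. Without the 3 rats 25 were lower on average and 15 at that level, with a median of -0.61. These counts without the 3 rats stand against 8.19% of all probe sets lower at that level.

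Mad2l1, a spindle checkpoint protein, was 6.79, 8.28 and 8.57 after MRT against 8.42, 9.43 and 10.59 after BB, with untreated tumours at 7.63 to 9.10. In 6 of 9 MRT tumours it was below every BB tumour. The difference was -1.38 ± 0.33 (adjusted p = 0.0584), -1.12 ± 0.36 without the 3 rats, and its next brightest probe set gave -0.67. Ccnb1, the mitotic cyclin, differed by -0.67 ± 0.34 and by -1.04 ± 0.37 without the 3 rats. Ttk, a spindle checkpoint kinase, differed by -0.75 ± 0.39 and by -1.31 ± 0.42 without them. With the neuron mean as a covariate both turned sign, to 0.14 ± 0.27 for Ccnb1 and 0.19 ± 0.32 for Ttk.

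Rfc4, a subunit of the clamp loader, was 9.28, 10.04 and 10.46 after MRT against 10.14, 10.88 and 11.87 after BB, and 7 of 9 MRT tumours were below the BB range. Its difference was -1.04 ± 0.26, -0.81 ± 0.27 without the 3 rats. Pcna, the sliding clamp, differed by -0.48 ± 0.15 and -0.40 ± 0.18. Ccne2, a cyclin of S-phase entry, differed by -0.79 ± 0.25 and -0.89 ± 0.28, while its other probe set gave 0.00. Among repair genes Xrcc4, a partner of DNA ligase IV in end joining, had no overlap: it was 7.68, 8.16 and 8.52 after MRT against 8.72, 8.86 and 9.60 after BB. The difference was -0.83 ± 0.16 (adjusted p = 0.0559), -0.68 ± 0.17 without the 3 rats, though a dimmer probe set gave -0.18. Xrcc5, which encodes the Ku80 end-binding protein, differed by -0.60 ± 0.16 and -0.58 ± 0.19 without the 3 rats, and the oxidized-guanine glycosylase Ogg1 by -0.54 ± 0.17 and -0.55 ± 0.21. A dimmer probe set of Xrcc5 gave -0.12.

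Neuron markers averaged higher after MRT in 24 of 24, 14 of them at an unadjusted p under 0.05 against 9.38% of all probe sets. Their median was 0.75, or 0.70 without the 3 rats, with 9 then higher at that level against 6.03% of all probe sets. Striatal neuron markers, those of the implanted region, went the other way on average, with a median of -0.23 over 12 and 0 at that level, or 0.44 without the 3 rats. The array with the most neuron signal, MRT rat 6 at 10.99, had a mitosis mean of 7.49. BB rat 47 had a mitosis mean of 7.48 with a neuron mean of 10.11. Leaving out MRT rat 6 moved the mitosis median to -0.23, and leaving out BB rat 47 moved it to -0.78. With the neuron mean as a covariate, the medians turned to 0.54 for mitosis, 0.31 for replication, 0.13 for repair, -0.01 for cytokines, -0.19 for astrocytes and -0.25 for mature oligodendrocytes, while the NF-kB median was 0.53. The part of brain content in the proliferation lists was not tested beyond this covariate.

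**Figure D3:**
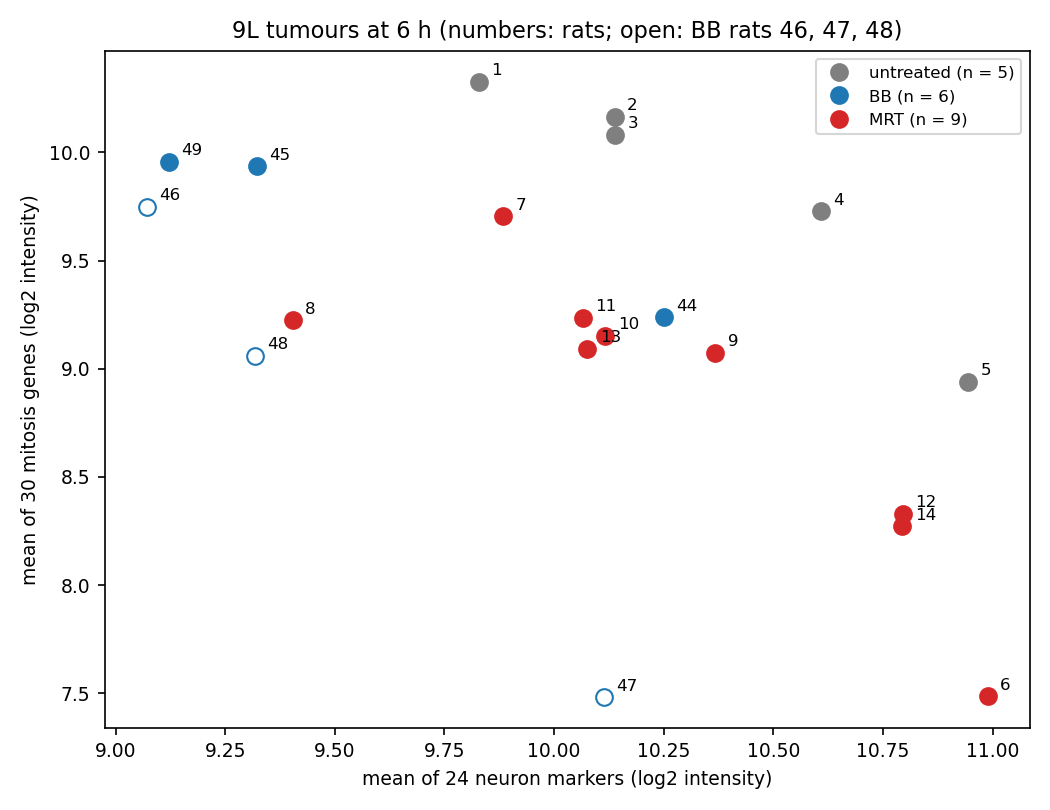
Mean log2 intensity of 30 mitosis genes (vertical axis) against that of 24 neuron markers (horizontal axis) on the 20 tumour arrays at 6 h, numbered by rat and coloured by treatment, with BB rats 46, 47 and 48 open. MRT rat 6 (7.49) and BB rat 47 (7.48) lie lowest in mitosis genes.

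Nefh, the heavy neurofilament chain, was 9.59, 10.71 and 11.27 after MRT against 9.05, 9.19 and 10.11 after BB, and 8 of 9 MRT tumours exceeded every BB tumour. Untreated tumours were at 10.12 to 11.32, near the MRT values. The difference was 1.22 ± 0.24 (adjusted p = 0.0559), 1.16 ± 0.31 without the 3 rats. Nefm, the medium chain, differed by 0.94 ± 0.25 and 0.94 ± 0.34 without the 3 rats, and Snap25, a synaptic fusion protein, by 0.63 ± 0.16 and 0.40 ± 0.19. Astrocyte and mature oligodendrocyte markers pointed the same way in value, while microglia markers, given below, did not. Oligodendrocyte precursor markers had a median of 0.07 over 7, which turned sign under 4 alternatives. Astrocyte markers had a median of 0.25, 0.56 without the 3 rats, with Gfap, the astrocyte filament, at 0.75 ± 0.23 (0.78 ± 0.21) and Glul, glutamine synthetase, at 0.47 ± 0.15 (0.52 ± 0.16), where brackets hold the value without the 3 rats. Mature oligodendrocyte markers had a median of 0.35, 0.96 without the 3 rats but -0.04 without BB rat 49. The myelin genes Mbp and Mag differed by 0.68 ± 0.21 (0.87 ± 0.22) and 1.08 ± 0.39 (1.56 ± 0.37).

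Microglia markers had a median of -0.16 over 8, with 2 lower at an unadjusted p under 0.05 against 14.4% of all probe sets. These 2 were Gpr34, a lysophospholipid receptor, at -1.25 ± 0.48 (-0.58 ± 0.60 without the 3 rats) and P2ry12, the ADP receptor of resting microglia, at -1.10 ± 0.47. P2ry12 was 5.36 to 9.38 after MRT, 7.09 to 9.25 after BB and 9.16 to 10.01 untreated, so both treatments lay mostly below the untreated tumours. Without the 3 rats its difference was -0.31 ± 0.56, and a dimmer probe set of P2ry12 gave -0.38 with all BB arrays. Macrophage and monocyte markers had a median of -0.14 over 26, and 0.18 without the 3 rats. T and NK cell markers had -0.26 over 22, and 0.04 without the 3 rats, with the granzyme Gzma at -1.11 ± 0.34, -1.19 ± 0.41 without them and -0.14 ± 0.19 with the neuron mean as a covariate. Interferon response genes had -0.17 over 33, and 0.08 without the 3 rats, and BB rat 47 held their highest mean, 9.60.

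Among interferon response genes Ifi44, a GTP-binding protein of unclear role, was 7.73, 8.72 and 9.07 after MRT against 8.97, 9.41 and 10.01 after BB. In 7 of 9 MRT tumours it was below the BB range. The difference was -0.79 ± 0.20, -0.64 ± 0.24 without the 3 rats. Bst2, which tethers virus particles, differed by -0.77 ± 0.27, -0.84 ± 0.37 without them and -0.22 ± 0.25 with the neuron mean as a covariate. Antigen presentation genes had a median of -0.10 over 23, and 0.02 without the 3 rats. The immunoproteasome subunit Psmb10 differed by -0.70 ± 0.19, and by -0.22 ± 0.15 without the 3 rats. Among 25 apoptosis genes the median was -0.13, -0.08 without the 3 rats. The inflammatory caspase Casp1 was 7.69, 8.88 and 9.25 after MRT against 8.99, 9.43 and 10.14 after BB, a difference of -0.88 ± 0.23, -0.76 ± 0.29 without the 3 rats. Birc3, an inhibitor of apoptosis induced by NF-kB, differed by 0.55 ± 0.21, 0.71 ± 0.26 without them.

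Vessel markers gave a median of -0.05 over 21, near the -0.04 of all probe sets, and -0.23 without the 3 rats. Of the 21, 9 averaged higher after MRT, or 5 without the 3 rats. With all BB arrays, 4 were lower at an unadjusted p under 0.05, against 14.4% of all probe sets. The members named here had the largest moderated statistics and do not stand for the list. Emcn, a sialomucin of venous and capillary endothelium, was 7.41, 7.82 and 8.74 after MRT, 8.50, 8.93 and 9.31 after BB and 8.50 to 8.79 untreated. In 7 of 9 MRT tumours it was below every BB tumour, and MRT rats 7 and 8 were the exceptions. The difference was -0.98 ± 0.19 (adjusted p = 0.0559), -0.86 ± 0.25 without the 3 rats. Tek, the angiopoietin receptor, differed by -0.70 ± 0.21 and -0.58 ± 0.26 without the 3 rats, with 6 of 9 MRT tumours below the BB range. The tight junction gene Ocln differed by -0.64 ± 0.25 and -0.29 ± 0.31, and its dimmer probe set gave -0.26 with all BB arrays. All 4 red blood cell markers measured were lower at an unadjusted p under 0.05, against 14.4% of all probe sets. Their median was -0.56, or -0.31 with 1 of 4 at that level without the 3 rats. Hbb, the beta globin chain, was 9.21 to 12.12 after MRT and 10.69 to 12.72 after BB, a difference of -1.39 ± 0.42, -1.16 ± 0.56 without the 3 rats. The part of blood left in the samples was not tested.

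Matrix genes had a median of 0.02 over 36, which was -0.47 without the 3 rats and 0.59 with the neuron mean as a covariate. Lumican, encoded by Lum, differed by -1.29 ± 0.40, -1.03 ± 0.53 without the 3 rats, and the stromelysin Mmp10 by -1.03 ± 0.28, -0.86 ± 0.36 without the 3 rats. Hypoxia genes had a median of 0.05 over 28, 0.03 without the 3 rats. With all BB arrays, 7 were higher and 2 lower at an unadjusted p under 0.05, against 9.38% and 14.4% of all probe sets. Glycolytic members differed among themselves, as Ldha, lactate dehydrogenase, was at -0.04. Aldoa, an aldolase, was 12.73, 13.34 and 13.63 after MRT against 11.82, 12.51 and 13.08 after BB, a difference of 0.71 ± 0.16 (adjusted p = 0.0559), 0.59 ± 0.16 without the 3 rats. The glucose transporter gene Slc2a3 differed by 0.62 ± 0.15 and 0.49 ± 0.14 without the 3 rats, though its dimmer probe set gave 0.12. Pfkfb3, which makes an activator of glycolysis, differed by 0.68 ± 0.19 and 0.63 ± 0.23, though its other probe sets gave 0.04 and -0.03. Untreated tumours were at 13.01 to 13.55 for Aldoa, within the MRT range.

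Ribosomal protein genes had a median of -0.12 over 26, with 9 lower at an unadjusted p under 0.05 against 14.4% of all probe sets. Without the 3 rats the median was -0.10, with 1 lower at that level against 8.19% of all probe sets. Rpl23 had no overlap between groups at a difference of -0.27 ± 0.07, -0.14 ± 0.07 without the 3 rats. Oxidative phosphorylation genes had a median of -0.11 over 34, 0.05 without the 3 rats, among them the complex I subunit gene Ndufs4 at -0.38 ± 0.11 and -0.21 ± 0.10. The heat shock and unfolded protein response list had a median of 0.01 over 24. Without the 3 rats it was -0.11, with 5 lower at an unadjusted p under 0.05 against 8.19% of all probe sets. Its chaperone genes Dnajc3 and Pdia4 differed by -0.71 ± 0.18 and -0.71 ± 0.20, or by -0.64 ± 0.22 and -0.67 ± 0.25. Nrf2 target genes had a median of 0.03 over 18, -0.02 without the 3 rats. Among them Sqstm1, an autophagy receptor, was at 0.61 ± 0.16 and 0.45 ± 0.17, and its other probe sets gave 0.26, 0.02 and -0.26. Cholesterol synthesis genes had a median of 0.01 over 18, -0.10 without the 3 rats, with the sterol isomerase Ebp at -0.64 ± 0.18 and -0.54 ± 0.21.

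Of the 20 genes with the smallest p, named after their values were seen, 18 were lower after MRT, and Tnfaip3 and Gadd45b were higher. Gene C2h4orf33, an open reading frame without an assigned function, was 6.78, 7.11 and 7.65 after MRT, 7.81, 8.33 and 9.92 after BB and 7.06 to 7.73 untreated. Its difference was -1.48 ± 0.26, but -0.82 ± 0.19 without the 3 rats. Nubpl, which assembles mitochondrial complex I, differed by -1.07 ± 0.19 and the mitochondrial GTPase gene Gtpbp10 by -0.82 ± 0.16. Ift74, a subunit of the ciliary transport complex, differed by -1.03 ± 0.20 and Dync2li1, a light intermediate chain of the ciliary dynein, by -0.62 ± 0.12. In each of these 5 genes all 9 MRT tumours were below all 6 BB tumours. Without the 3 rats the differences of the other 4 were -0.78, -0.65, -0.79 and -0.47.

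In contralateral tissue the same treatments were compared without tumour. There 27 probe sets (0.087%) were called higher after MRT and 0 lower, and without rats 46, 47 and 48 0 were called, with 2067 (6.66%) at an unadjusted p under 0.05 and a smallest adjusted p of 0.0871. Of the 27, 23 had gene symbols, and they included Cxcl2 at 2.86 ± 0.60, Il1b at 2.54 ± 0.38, Ccl3 at 2.52 ± 0.47, Cxcl1 at 2.34 ± 0.37, Ccl20 at 2.34 ± 0.50, Ccl4 at 2.04 ± 0.43, Zfp36 at 1.89 ± 0.36, Il6 at 1.81 ± 0.33 and Csf3r at 1.33 ± 0.24. These genes were named after their calls were seen. Without the 3 rats all 27 were higher in value, with a median of 1.21, Cxcl2 at 2.64 ± 0.83, Il1b at 2.39 ± 0.50 and Il6 at 1.79 ± 0.36. The 27 had been chosen with these same remaining arrays, so their direction in this fit is no separate support. In tumours 24 of the same 27 probe sets averaged higher after MRT, 17 at an unadjusted p under 0.05 against 9.38% of all probe sets, with a median of 0.63 against 1.27 contralaterally. Without the 3 rats the tumour median was 0.78, with 24 higher and 17 at that level against 6.03% of all probe sets. In the fit over 59 tumour arrays 10 of the 27 were called, against 10.6% of all probe sets, 3.85% higher and 6.74% lower. For 12 of the 27 the difference was smaller in tumours than contralaterally at an unadjusted p under 0.05, with 0 called. Of all probe sets 10.1% were lower in that test. The 27 were chosen by their contralateral difference, which favours larger values there. Their medians therefore cannot decide whether the difference is smaller in tumours. The tumour and contralateral arrays came from the same rats, and the tissue test did not pair them.

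Contralateral Cxcl2 was 5.86, 8.94 and 11.01 after MRT, 5.25, 5.94 and 6.44 after BB and 4.52 to 5.21 untreated, a pattern close to that of the tumours, where the difference was 3.08. Contralateral Il1b was 7.48, 10.30 and 10.55 after MRT against 7.04, 7.47 and 7.66 after BB. Tnfaip3 differed by 0.63 ± 0.18 there, 0.59 ± 0.25 without the 3 rats, against 1.18 ± 0.19 in tumours. Rgs16, a brake on G-protein signalling, differed by 1.09 ± 0.19 there and by 0.94 ± 0.20 in tumours, and Socs3, the feedback inhibitor of cytokine receptors, by 1.18 ± 0.22 and 0.58 ± 0.23. Over all probe sets 3240 (10.4%) had an unadjusted p under 0.05 contralaterally, 6.9% higher and 3.54% lower after MRT. This balance turned with the scaling, to 888 higher and 2707 lower with ribosomal scaling and to 1468 and 1878 with a common median. The NF-kB list had a contralateral median of 0.63 with 1 call and 14 of 19 higher at that level. The cytokine list had 0.27 with 7 calls and 13 of 32 at that level, and the neutrophil list 0.78 with 3 calls. Leaving out the 3 rats, these contralateral medians were 0.59, 0.30 and 0.79.

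**Figure D4:**
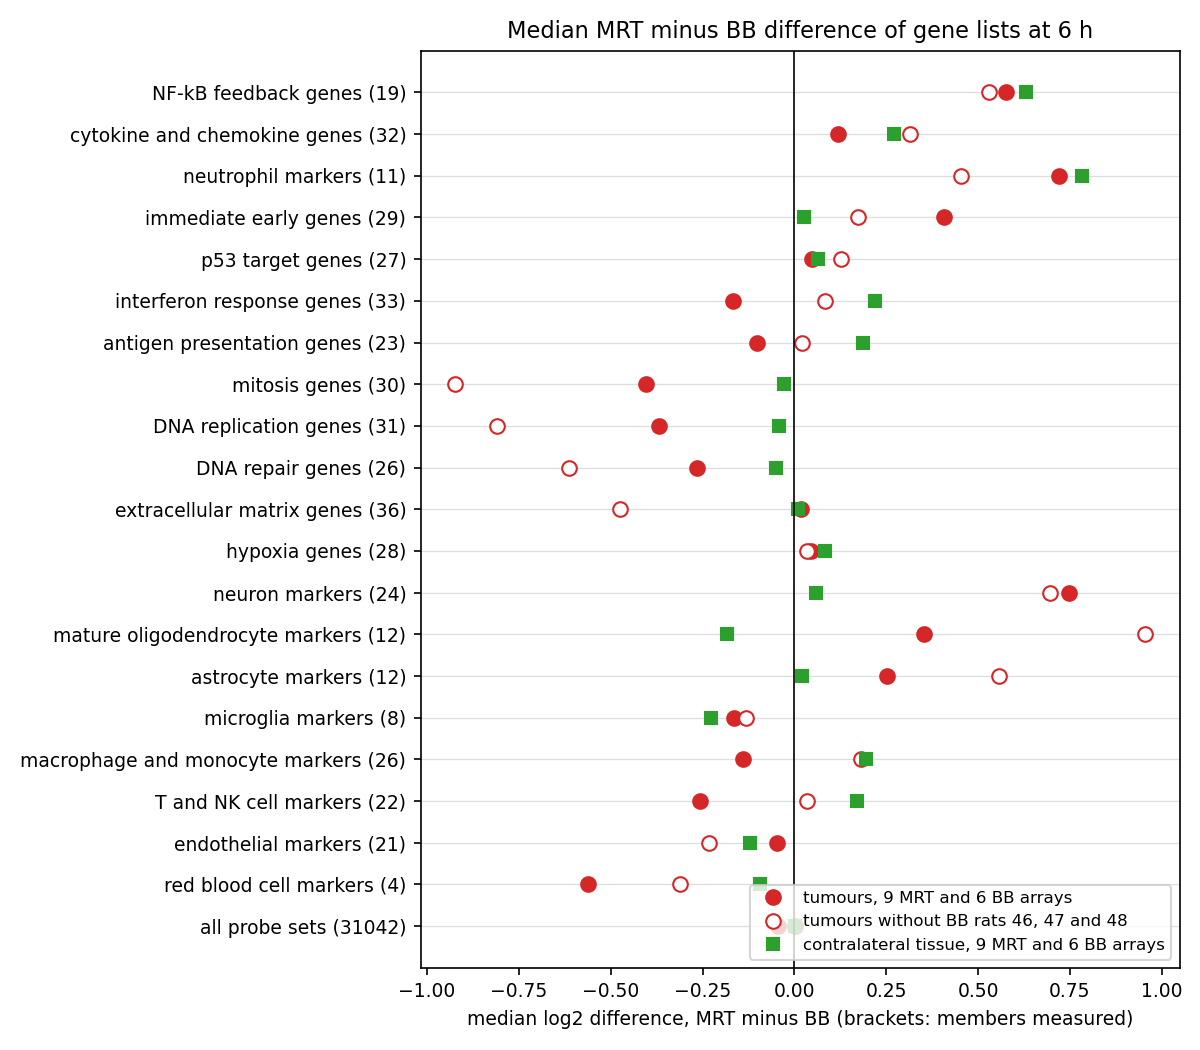
Median log2 difference, MRT minus BB, of 20 gene lists and of all probe sets in tumours at 6 h (filled circles), in tumours without BB rats 46, 47 and 48 (open circles) and in contralateral tissue (squares). NF-kB, neutrophil and neuron lists lie above 0.4 in tumours with and without the 3 rats, and only the neuron list of these 3 is near 0 contralaterally.

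The difference between tissues was tested directly, as the tumour difference minus the contralateral one, in which a shift shared by both tissues of the BB label set drops out. By limma 0 of 31042 probe sets (0%) were called, with a smallest adjusted p of 0.0547 and 5294 (17.1%) at an unadjusted p under 0.05, 6.96% higher and 10.1% lower. Ribosomal scaling turned this balance to 4819 higher and 621 lower. Without the 3 rats, 0 were called and 1909 (6.15%) had an unadjusted p under 0.05. The fit did not pair the tissues of each rat, so the values below ignore that pairing. Limma on within-rat differences, tumour minus contralateral, called 0, with 7246 at an unadjusted p under 0.05 and a smallest adjusted p of 0.0588. Il6 had an adjusted p of 0.0547, with a tumour minus contralateral difference of -2.45 ± 0.47, and C2h4orf33 had the same adjusted p at -1.46 ± 0.29. These were -1.80 ± 0.51 and -0.62 ± 0.22 without the 3 rats. For Cxcl2 the tissue difference was 0.22 ± 0.85, for Ccl3 -0.70 ± 0.67, for Tnfaip3 0.55 ± 0.26 and for Icam1 0.04 ± 0.43. Without them these were 0.51, -0.19, 0.49 and -0.02. Egr1, which was lower after MRT contralaterally at -0.26 ± 0.19, had a tissue difference of 1.08 ± 0.27, 0.64 ± 0.33 without the 3 rats. The list medians of the tissue difference were 0.04 for NF-kB feedback genes, -0.35 for cytokines, 0.62 for neuron markers and -0.32 for mitosis genes, against -0.06 over all probe sets. Without the 3 rats they were -0.02, -0.11, 0.69 and -0.80, against -0.04. Leaving out BB rat 44 gave 992 calls, and leaving out any other single rat gave at most 10.

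**Figure D5:**
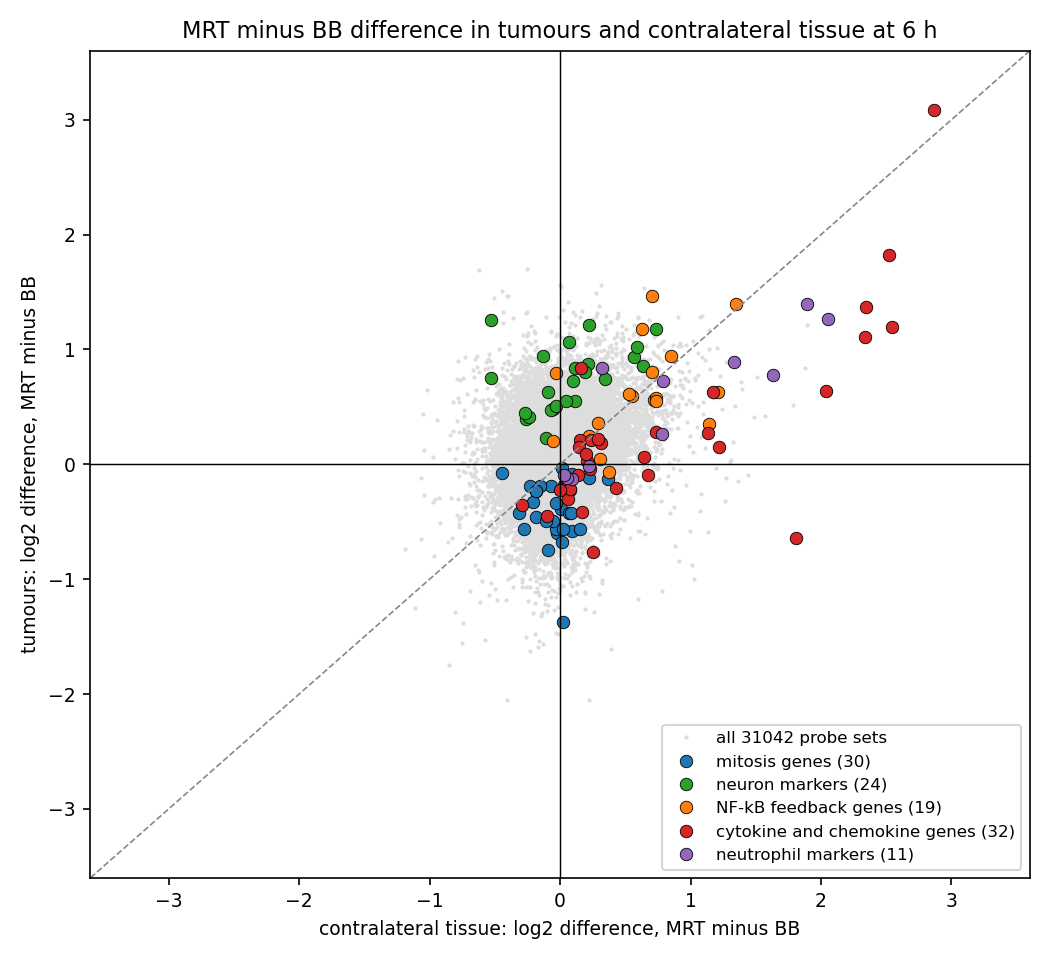
Log2 difference, MRT minus BB, in tumours (vertical axis) against that in contralateral tissue (horizontal axis) for all 31042 probe sets and for 5 gene lists, with a dashed line where both are equal. Cxcl2 (3.08 and 2.86) lies near the line at the upper right, Il6 (-0.64 and 1.81) below it, and neuron markers and mitosis genes spread along the vertical axis.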

How the data were processed

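Per the labels' protocols, RNA was extracted with mirVana and 200 ng was amplified with 3' IVT Express reagents for rat arrays of 31099 probe sets. The deposited table holds linear intensity values, rounded to whole numbers, from 7 to 27837, with array medians of 117 to 165. For the BB arrays the submitters' processing notes name RMA alone, and for the others MAS5 too, both under Affymetrix Expression Console. Versions are not given in the sources used here. The number of arrays limits the precision, and 0 columns of per-sample values lacked a sample.

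From these values log2 was taken, 57 control probe sets were left out, and 31042 probe sets were tested with limma 3.58.1 in R 4.3.3 (lmFit, eBayes with an intensity trend, Benjamini-Hochberg adjustment, adjusted p under 0.05). Tumours were compared in a fit of 20 tumour arrays, including the untreated ones. Contralateral tissue and the tissue difference came from a fit of all 40 arrays at 6 h. The analysis was tested on simulated data. A gene symbol was single for 20826 probe sets, absent for 9780 and multiple for 436, and lists used the brightest probe set of each gene. The members and all 37 lists were chosen with earlier results of these data known. Since no probe set was called in tumours, up to 3 genes with the largest moderated statistic were named per list, besides genes stated as named after their values were seen. The rat number pairs tumour and contralateral arrays of 1 animal: deviations from group means correlated above 0.1 in 19 of 20 rats (median 0.309). Alternatives covered scaling, filters, pseudocount, variance model, covariates, the arrays in the fit, and each rat left out. Promoter windows were read from RefSeq tables with Python 3.11.15.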

Additional observations from a re-analysis of the deposited data

Results flagged for a closer look

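Single arrays that stood far from the rest of their group were sought in 234 groups of 6 or 9 tumour arrays, by the gap to the nearest array over the whole range. Chance alone flags about 1 in 20 such groups, and 18 were flagged. All values are log2 intensities.

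BB rat 47 was far below the other 5 BB tumours in Ccnb1 (8.52, others 9.97 to 10.7), in Cdkn2a (8.64, others 10.88 to 11.78), and in the means of mitosis genes (7.48, others 9.06 to 9.96) and DNA replication genes (8.65, others 9.87 to 10.55). It was far above them in the means of interferon response genes (9.60, others 8.64 to 8.96) and reactive astrocyte markers (10.57, others 9.25 to 9.67). BB rat 46 was far above the others in Xrcc4 (9.60, others 8.72 to 9.04) and Ift74 (9.97, others 8.78 to 9.16), and far below them in Sqstm1 (10.59, others 11.27 to 11.62).

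MRT rat 6 was far below the other 8 MRT tumours in B2m, the light chain of MHC class I (13.36, others 13.7 to 13.9), and in Mmp3 (9.82, others 11.32 to 12.39). It was also low in the means of antigen presentation genes (8.71, others 9.43 to 9.88), extracellular matrix genes (8.81, others 9.86 to 10.49), heat shock and unfolded protein response genes (10.33, others 10.67 to 10.99) and 9L tumour cell transcripts (8.25, others 9.58 to 10.6). MRT rat 10 was far above the others in Ccl4 (10.73, others 8.30 to 9.42) and Rgs16 (10.2, others 8.67 to 9.27), and MRT rat 7 was far below them in Dusp5 (7.16, others 7.80 to 8.44).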

How the results depend on the processing

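The count of probe sets called between MRT and BB tumours was 0 as reported and with quantile normalization, ribosomal scaling, a pseudocount of 16, no intensity trend, either covariate, and only the 15 MRT and BB arrays. It was 332 with a common median, 363 without the dimmest 30% of probe sets, 529 with 1 probe set per gene, 6838 with array weights, 3287 with 59 tumour arrays and 4583 with 40 arrays. With 1 rat left out it ranged from 0 to 2051. The tissue difference, 0 as reported, gave 14 calls without the dimmest 30%, 9 with 1 probe set per gene, 4284 with array weights and 2 with the Gapdh covariate, and 0 to 992 with 1 rat left out. With rat as a replicate block, which pairs the tissues of each animal, it gave 0. The contralateral count, 27 as reported, was 14 with ribosomal scaling, 2816 with array weights, 51 with the neuron covariate, 12 with the Gapdh covariate, 0 without BB rats 46, 47 and 48, and 11 to 156 with 1 rat left out. With the neuron covariate, 6 of the 87 genes followed through the alternatives turned sign, none called in either fit: Ccnb1, Ttk, Il6, Mmp3, Mmp13 and Cdkn2a. The cause of these changes was not tested. The number of arrays and the whole-number rounding, a step of 0.193 log2 at the lowest intensity, limit the dim genes.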
